A study of Mus musculus with 2 samples.

Results

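Egr2 and Fgf3 are 2 genes that act while the embryonic hindbrain is divided into segments, and their loci were examined in hindbrain tissue taken days after that division. The members were every DNase-seq peak and hotspot with a position within 1 kb (promoter) or within 100 kb (distal) of a transcription start site (TSS) of either gene by the GENCODE M21 basic annotation. There were 79 such peaks of 263679 in replicate 1 and 45 of 148804 in replicate 2. Of the hotspots, 71 of 231347 were members in replicate 1 and 41 of 133205 in replicate 2. Egr2 held 32 peaks in replicate 1 and 18 in replicate 2, and Fgf3 held 47 and 27.

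DNase-seq maps hypersensitive sites, the stretches of chromatin that are open enough for the nuclease DNase I to cut. It was applied to hindbrain of B6NCrl mouse embryos at embryonic day 14.5, with males and females pooled. The labels give 1 group of 2 biological replicates, healthy tissue with no treatment or genetic change, and no other tissue or stage. The replicates are separate tissue samples under the same donor label, so the spread between them may not be that between independent donors. No p-value is given, since there is no second group to compare.

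The early hindbrain is divided into segments called rhombomeres, whose borders set where cranial nerves and brainstem nuclei form. Egr2, also known as Krox20, is a zinc finger transcription factor made in rhombomeres 3 and 5 during segmentation. It is used again later in boundary cap cells, at the points where nerve roots leave the brainstem and cord, and in myelinating Schwann cells. Fgf3 is a secreted fibroblast growth factor of the early hindbrain that patterns its segments and helps to induce the inner ear. Mouse Egr2 is also an immediate-early gene in several cell types, switched on by growth factor signals through serum response factor, whose binding site is the CArG box.

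A peak is a 150 bp interval with a score, a whole number whose scaling is not stated. A score is therefore given with its percentile among all peaks of its own library where levels are compared. The median score was 47 in replicate 1 and 30 in replicate 2. A hotspot is a wider region of enriched cutting with a −log10 q-value, which was at most 6.0 or equal to 100, taken as a cap. Peaks of the 2 libraries that overlapped by 1 bp or more are called shared, and the rest private. Distances are in kb from the first basic TSS to the middle of a peak, with a negative sign upstream. In bulk tissue, fewer cells with an open site and less opening per cell cannot be told apart.

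The tissue label was checked against marker promoters, a promoter being called when it held a shared peak. All 9 of 9 hindbrain neural genes were called, among them Hoxa2, Hoxb2 and En2, 2 of 3 forebrain genes and 0 of 3 liver genes (Alb, Afp and Apoa1). By the same rule 64.6% of all protein-coding genes were called, which is near the share of the forebrain genes. The hindbrain list includes general neural genes (Tubb3, Dcx, Sox2 and Nes), so its count alone does not set hindbrain apart from other brain. For cell types in which these 2 genes are used, 7 of 10 Schwann cell and boundary cap genes were called, with Sox10 and Cdh19 among those uncalled, and 4 of 8 otic genes, with Oc90 and Pax8 among those uncalled. The Schwann cell and boundary cap share was also near that of all genes. Replicate 1 alone had 7 of the 8 otic promoters, Pax8 among them with a score of up to 87, and hotspots at the cap in both libraries left 2. That threshold left 6 of the 9 hindbrain genes and 5 of the 10 Schwann cell and boundary cap genes. It left 1 of the 3 forebrain and 0 of the 3 liver genes, against 55.8% of all protein-coding genes.

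The promoters of both Egr2 and Fgf3 were called in replicate 1, in replicate 2 and in the shared peaks. This was also so for most genes, since among 21938 protein-coding genes 69.9% were called in replicate 1, 65.7% in replicate 2 and 64.6% in the shared peaks. The promoter window of both genes was overlapped by a hotspot in both libraries, as it was for 65.5% of protein-coding genes. Hotspots at the cap in both libraries were found at Egr2 and not at Fgf3, and at 55.8% of protein-coding genes. The calls of these 2 genes are therefore read as those of a typical coding gene.

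Egr2 (ENSMUSG00000037868.15, chr10:67535475-67542188, plus strand, mm10) has 3 basic start sites, at 67537869, 67537870 and 67538683. Annotated transcripts outside the basic set start farther upstream, at 67535475. Open chromatin at the gene lay just upstream of the basic start. A peak at −0.1 kb (chr10:67537696-67537845) scored 121 in replicate 1 and 67 in replicate 2, percentiles 95.7 and 86.4. A peak at −0.4 kb (chr10:67537396-67537545) scored 101 and 63, percentiles 91.2 and 84.6. Both peaks had the same coordinates in both libraries. They lay in 1 hotspot, 791 bp long in replicate 1 and 713 bp in replicate 2, at the cap in each, and all of the replicate 2 hotspot lay within that of replicate 1.

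The sequences of these sites follow because they carry the motif matches described next, with matches in capitals. All are from the plus strand of GRCm38, 5′ to 3′. The peak at −0.4 kb is printed whole. Most of the peak at −0.1 kb lies in an untranslated exon of a RefSeq transcript, so 30 bases around each of 2 matches are given.
Egr2 −0.4 kb, chr10:67537396-67537545, CArG box and GC box: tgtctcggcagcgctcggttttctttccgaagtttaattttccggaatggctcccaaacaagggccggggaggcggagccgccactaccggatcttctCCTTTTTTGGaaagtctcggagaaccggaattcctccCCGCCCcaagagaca
Egr2 −0.1 kb, chr10:67537793-67537822, CArG box: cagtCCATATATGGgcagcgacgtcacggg
Egr2 −0.1 kb, chr10:67537731-67537760, octamer: gccaagcccgtATGCAAATtggccatgtga

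Both shared promoter peaks of Egr2 held a CArG box (CC, 6 bases of A or T, then GG, read on both strands), the motif bound by serum response factor. The first bases of the 2 matches lay at −375 and −72 bp from the first basic TSS. Neither overlapped a match of another motif searched. Over all shared peaks, 0.531% of 30695 promoter peaks and 0.702% of 81027 distal peaks held one. The octamer ATGCAAAT, the consensus of POU factors, was found at −127 bp in the peak at −0.1 kb, against 0.766% of all shared promoter peaks. None of the 14 shared Egr2 peaks held the EGR site GCGTGGGCG, which was found in 0.541% of shared promoter peaks, or the cyclic AMP response element TGACGTCA. A match is a run of letters and not a bound site.

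The CArG boxes were set beside those of the other genes of the family, after the matches at Egr2 had been seen. Egr1, the best known immediate-early member, had a CArG box in 2 of its 5 shared promoter peaks, and Egr3 in its 1 peak. Egr4 had none in its 1 peak, and none was found in the 1 shared promoter peak of Nab1 or the 2 of Nab2, corepressors that bind EGR proteins. Neither of the 2 shared promoter peaks of Fgf3 held one.

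A further strong site of Egr2 lay outside the promoter window. The peak at −1.7 kb (chr10:67536096-67536245) scored 110 in replicate 1 and 58 in replicate 2, percentiles 93.6 and 82.0, and its hotspots of 627 and 406 bp were at the cap in both libraries. It lies between the start of the longer annotated transcripts and the basic TSS. Its middle is inside the annotated gene and outside the exons of basic transcripts. A weaker peak at −2.5 kb, beside that outermost start, scored 62 and 27. The bases of the −1.7 kb peak are shown, without 15 annotated as untranslated, as the site next outside the promoter window. They were rich in CpG, with a CpG observed/expected ratio of 0.892 and a GC box, in capitals.
Egr2 −1.7 kb, chr10:67536111-67536245: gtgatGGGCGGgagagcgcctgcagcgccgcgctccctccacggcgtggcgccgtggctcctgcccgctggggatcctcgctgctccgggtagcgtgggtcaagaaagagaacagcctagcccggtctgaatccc

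**Figure D1:**
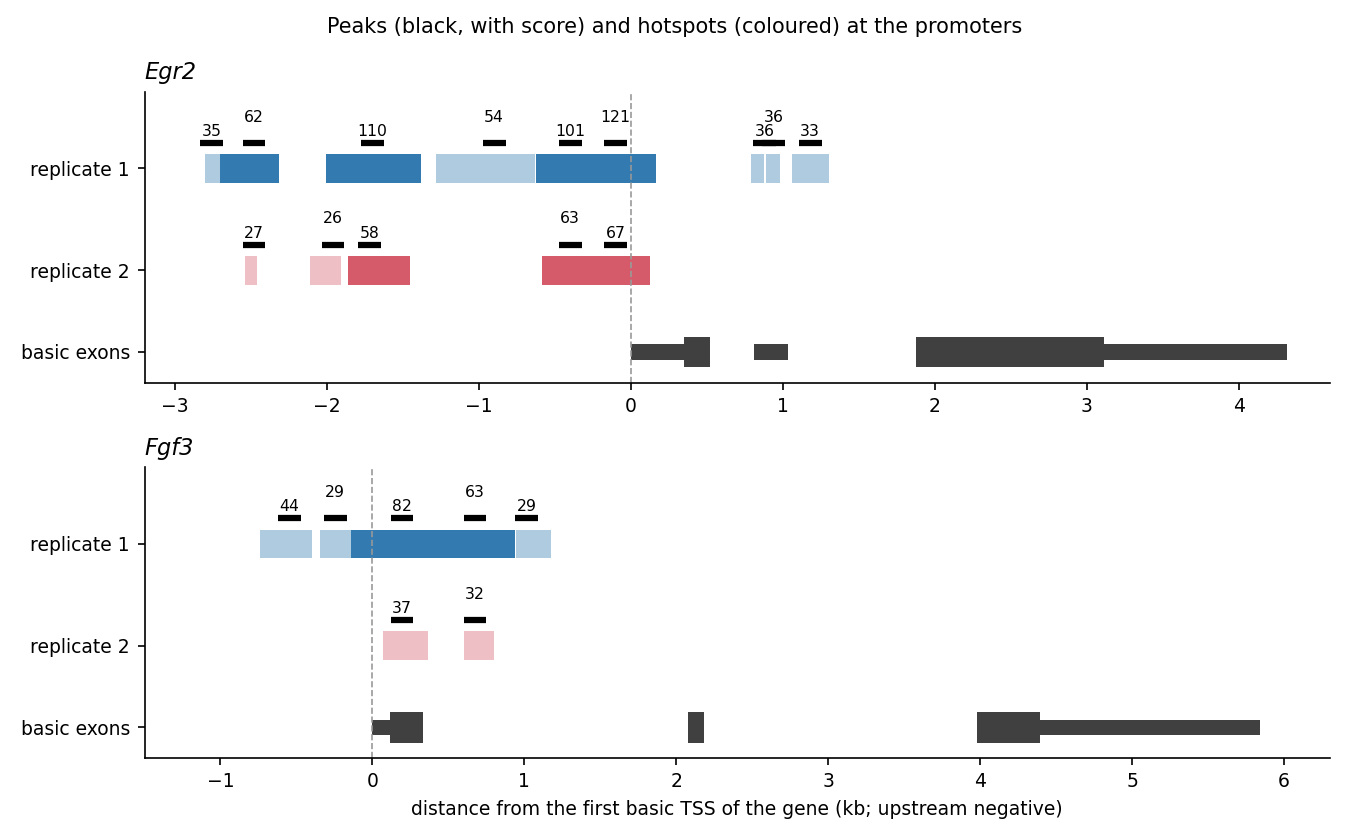
Peaks and hotspots at the 5′ ends of Egr2 and Fgf3 by distance from the first basic TSS (kb, dashed line), with replicate 1 above replicate 2. Black bars are peaks with their scores, coloured bars are hotspots (dark where the −log10 q is 100) and grey bars are exons of basic transcripts (tall where coding). The shared peaks of Egr2, scoring 121 and 101 in replicate 1, lie upstream of the TSS, and those of Fgf3, scoring 82 and 63, lie inside the gene.

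Replicate 1 had 4 more promoter peaks at Egr2 that replicate 2 lacked. One at −0.9 kb scored 54. A pair of overlapping peaks of score 36 each at 0.9 kb and a peak of score 33 at 1.2 kb lay by the third basic start. Egr2 thus had 6 promoter peaks in replicate 1, at the 97.9th percentile of protein-coding genes, and 2 in replicate 2, at the 60.9th. The medians over protein-coding genes were 2 and 1. The highest promoter score of Egr2 was at the 58.3rd percentile in replicate 1 and the 51.5th in replicate 2, so its promoter was near the middle of coding genes in strength. Its 121 and 67 lay below the median highest score of genes with a promoter peak, 128 in replicate 1 and 95 in replicate 2.

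Fgf3 (ENSMUSG00000031074.14, chr7:144838083-144844436, plus strand, mm10) has 1 basic start site, at 144838595. Its open chromatin lay inside the gene and was weaker than that of Egr2 in both libraries. The peak at 0.2 kb (chr7:144838716-144838865), wholly within the coding part of the first exon, scored 82 in replicate 1 and 37 in replicate 2, percentiles 82.9 and 63.5. The peak at 0.7 kb (chr7:144839196-144839345), in the first intron, scored 63 and 32, percentiles 69.3 and 55.1. The hotspots over them were 578 and 501 bp long and at the cap in replicate 1. In replicate 2 they were 298 and 199 bp long, with −log10 q of 3.17 and 2.16. The highest promoter score of Fgf3 was at the 42.6th percentile of protein-coding genes in replicate 1 and at the 40.7th in replicate 2. These percentiles include genes with no promoter peak. Among genes with one, 82 and 37 lay well below the median highest score, 128 in replicate 1 and 95 in replicate 2.

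The sequences of the Fgf3 sites are given to set beside those of Egr2, with GC box and E-box matches in capitals.
Fgf3 0.2 kb, chr7:144838716-144838865: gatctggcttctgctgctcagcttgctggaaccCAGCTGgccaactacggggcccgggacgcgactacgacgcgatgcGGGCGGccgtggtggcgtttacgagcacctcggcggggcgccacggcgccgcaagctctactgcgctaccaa
Fgf3 0.7 kb, chr7:144839196-144839345: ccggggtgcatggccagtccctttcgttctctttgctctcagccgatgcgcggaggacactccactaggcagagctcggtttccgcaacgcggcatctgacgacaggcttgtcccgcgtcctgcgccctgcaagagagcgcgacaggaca

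Both were GC-rich, with 68.7% and 64.0% G and C, against 56.0% at −0.4 kb and 57.3% at −0.1 kb of Egr2. The median over all shared promoter peaks was 62.0%. The CpG observed/expected ratio had a median of 1.03 in the 2 Fgf3 peaks and 0.920 in the 2 Egr2 peaks, and 0.719 over all shared promoter peaks. No base of these 4 peaks was masked as a repeat. Within 1 kb upstream of the Fgf3 TSS, replicate 1 alone had peaks, of score 44 at −0.5 kb and 29 at −0.2 kb. A replicate 1 peak of score 29 whose middle lay 1015 bp past the TSS fell just outside the promoter window.

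Distal sites were found around both genes, and how many depended on the window. Egr2 had 26 distal peaks in replicate 1, 16 in replicate 2 and 12 shared. Fgf3 had 43, 25 and 18. The medians over protein-coding genes were 24, 15 and 12, with quartiles of 6 and 19 for shared peaks. The shared counts stood at the 51.2nd percentile for Egr2 and the 72.2nd for Fgf3. That order turned closer to the genes. Within 20 kb the counts stood at the 77.0th percentile for Egr2 and the 14.3rd for Fgf3, and for peaks nearest to the gene's own TSS at the 88.1st and the 58.5th. Within 50 kb they stood at the 54.4th and the 24.1st.

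**Figure D2:**
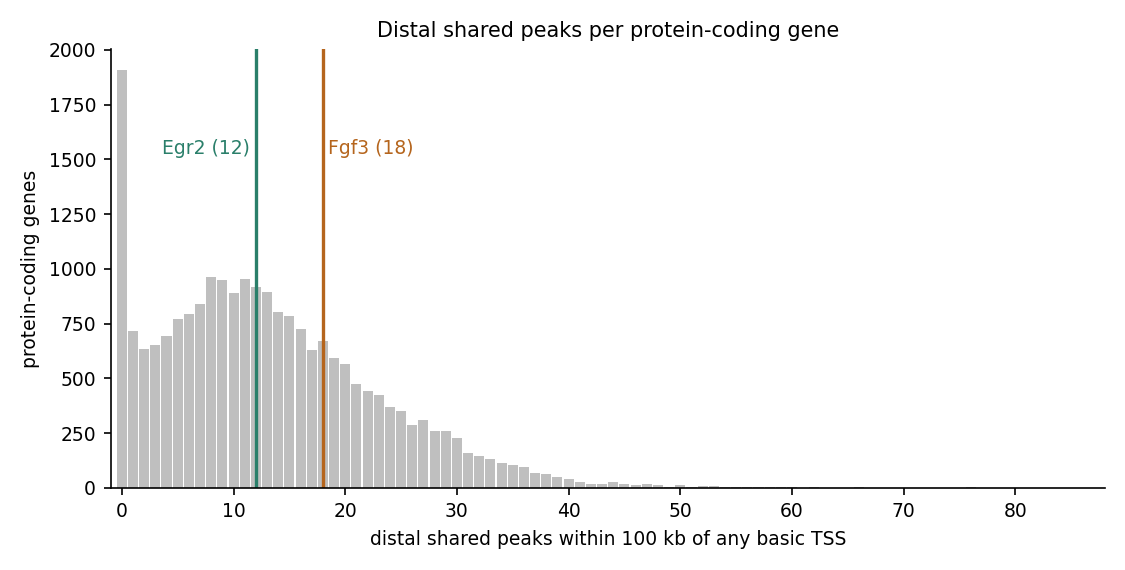
Distal shared peaks within 100 kb of any basic TSS (x axis, number of peaks) over 21938 protein-coding genes (bars, number of genes). The lines mark Egr2 with 12 and Fgf3 with 18, beside a median of 12.

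At Egr2, 7 of the 12 distal shared peaks lay upstream and 5 downstream. All 7 upstream peaks had Egr2 as their nearest coding gene, and all 5 downstream peaks had Ado, a thiol dioxygenase gene whose TSS lies 11086 bp past that of Egr2. The strongest peak of the locus belonged to Ado. It lay 135 bp from the Ado TSS and scored 144 and 124, and a companion at 11.8 kb scored 76 and 46. Beyond these, the strongest upstream site away from the gene was at −79.0 kb (chr10:67458816-67458965), with a score of 67 in replicate 1 and 38 in replicate 2, percentiles 72.8 and 64.9. It had the same coordinates in both libraries, and a weaker peak at −79.4 kb (38 and 21) lay beside it. It is printed as the strongest shared site over 20 kb from the Egr2 TSS, with its 1 motif match, an E-box (CAGCTG), in capitals.
Egr2 −79.0 kb, chr10:67458816-67458965: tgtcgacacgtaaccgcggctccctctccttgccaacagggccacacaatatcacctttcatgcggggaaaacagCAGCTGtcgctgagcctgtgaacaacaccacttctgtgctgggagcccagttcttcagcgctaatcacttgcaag

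Peaks at −68.6 kb (58 and 14) and −55.4 kb (65 and 20) ranked far higher in replicate 1 than in replicate 2. Their percentiles were 64.3 and 7.92 at the first and 71.1 and 22.0 at the second. A higher percentile in replicate 1 was general, being found for 83.5% of all shared peaks. The peak at −68.6 kb held a HOX-PBX site (TGATNNAT), the only one in the 14 shared Egr2 peaks, while 7.75% of all shared distal peaks held one. Hox and Pbx proteins act upstream of Egr2 in the segmenting mouse hindbrain. The peak at −98.2 kb scored 27 and 17. No shared peak lay in the 52.9 kb between −55.4 and −2.5 kb, where replicate 1 had private peaks of score 37 at −25.4 kb and 35 at −2.8 kb and replicate 2 had one of score 15 at −23.8 kb.

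Downstream of Egr2, past Ado, shared peaks lay at 22.3 kb (56 and 29), 28.4 kb (47 and 22) and 96.9 kb (39 and 14). The 68.5 kb between the last 2 held no shared peak. There replicate 1 had 7 private peaks of scores 25 to 53, the highest at 77.2 kb, and replicate 2 had 1 of score 11. Over the whole window, replicate 1 had 10 distal peaks upstream and 16 downstream, and replicate 2 had 10 and 6. Enhancers of Egr2 are known in the mouse on both sides of the gene, for the hindbrain and for Schwann cells. Their positions were not used here, so no peak is matched to one.

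**Figure D3:**
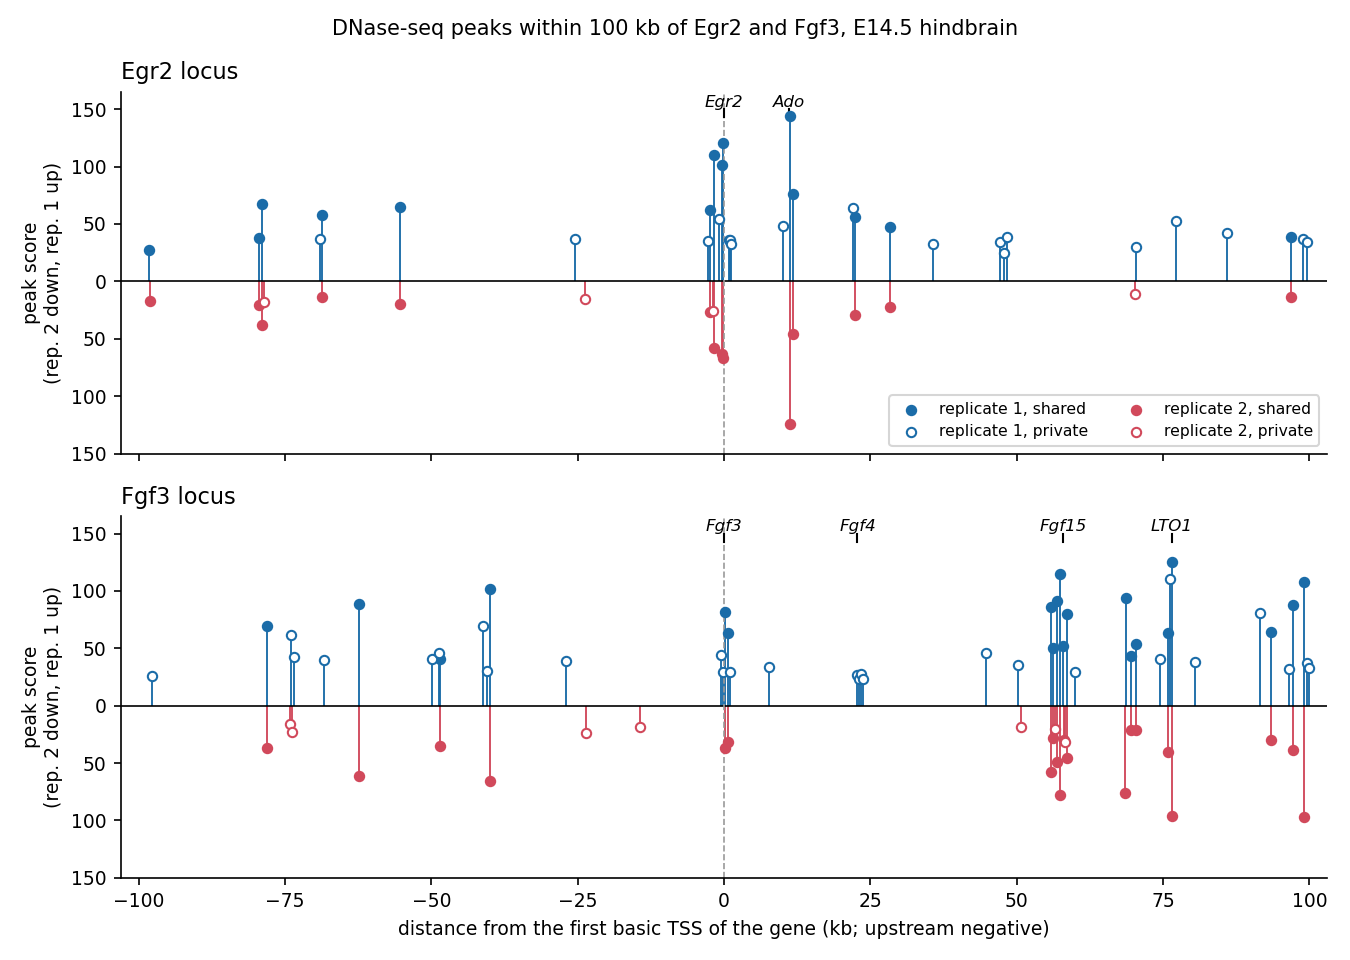
Score of each peak (y axis, replicate 1 upward and replicate 2 downward) by distance from the first basic TSS (x axis, kb) at Egr2 and Fgf3. Filled circles are shared peaks and open circles private ones, and ticks at the top mark coding genes. Egr2 has no shared peak between −55.4 and −2.5 kb, and most shared peaks of the Fgf3 window lie at 55.8 kb or farther downstream, at Fgf15, LTO1 and Ccnd1.

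At Fgf3, most distal sites lay nearer to other genes. Of the 18 distal shared peaks, 2 had Fgf3 as their nearest coding gene. The others were nearest to Fgf15 (6 peaks), LTO1 (5), Ccnd1 (3) and Ano1 (2). Shared peaks were absent from the 40.1 kb upstream of the promoter peaks and from the 55.1 kb downstream of them. Within 20 kb of the TSS, Fgf3 had 0 distal shared peaks, against 4 at Egr2.

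The 2 sites nearest to Fgf3 lay upstream. The peak at −39.9 kb (chr7:144798596-144798745) was intergenic and scored 102 in replicate 1 and 66 in replicate 2, percentiles 91.5 and 86.0. That is a higher score than any promoter peak of Fgf3 in either library. Repeats made up 42.7% of it, and it held no CpG. The peak at −48.5 kb scored 41 and 35, and 70.7% of it was repeat. Farther out, a peak at −62.4 kb (chr7:144776156-144776305) scored 89 and 61, percentiles 86.5 and 83.6, and one at −78.2 kb scored 69 and 37. Their nearest coding gene was Ano1, which encodes a chloride channel.

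The 2 strongest upstream sites are shown because each outscored the promoter peaks of Fgf3. Capitals mark a SOX match (ACAAAG, here on the minus strand) at −39.9 kb, and the CTCF consensus and an E-box at −62.4 kb. CTCF anchors chromatin loops, and its consensus was found in 1 of the 20 shared Fgf3 peaks and in 0 of the 14 of Egr2, against 6.12% of all shared distal peaks.
Fgf3 −39.9 kb, chr7:144798596-144798745: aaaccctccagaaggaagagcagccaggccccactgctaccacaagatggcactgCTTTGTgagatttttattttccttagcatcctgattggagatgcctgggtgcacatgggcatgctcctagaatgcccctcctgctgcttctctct
Fgf3 −62.4 kb, chr7:144776156-144776305: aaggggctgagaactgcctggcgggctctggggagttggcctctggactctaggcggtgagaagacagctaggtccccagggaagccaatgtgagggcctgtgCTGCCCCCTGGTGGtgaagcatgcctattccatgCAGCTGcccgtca

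The chromosome 7 window also holds 2 further FGF genes, with unlike promoters. Fgf3, with highest promoter scores of 82 in replicate 1 and 37 in replicate 2, lay between them in both libraries. Fgf4, a ligand of early embryo and limb bud whose TSS lies 22791 bp past that of Fgf3, had 4 promoter peaks in replicate 1, of scores 23 to 28, and 0 in replicate 2. Fgf15, a ligand made in the midbrain and hindbrain of the embryo, lies 57936 bp past Fgf3 and had promoter peaks of up to 115 in replicate 1 and 78 in replicate 2. Those peaks were part of a run of 6 shared peaks from 55.8 to 58.5 kb, and the hotspot over 5 of them was 2992 bp long in replicate 1, the 99.9th percentile of its hotspots. Strong peaks farther on belonged to LTO1 (125 and 96, 10 bp from its TSS) and to the cell cycle gene Ccnd1, with a peak at 99.1 kb that scored 108 and 97.

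The limits of the windows cut through both loci. Just inside 100 kb lay a private replicate 1 peak of score 34 at Egr2 and one of score 33 at Fgf3. In replicate 2 the outermost peaks inside scored 17 at Egr2 and 97 at Fgf3. Just outside lay shared peaks of score 43 and 19 at Egr2 and 42 and 18 at Fgf3.

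The libraries shared the members to the same degree as peaks in general. Of the replicate 1 peaks, 14 of 32 were shared at Egr2 (43.8%, 95% Wilson interval 28.2% to 60.7%) and 20 of 47 at Fgf3 (42.6%, 29.5% to 56.7%), against 42.4% of all peaks. Of the replicate 2 peaks, 14 of 18 were shared at Egr2 (77.8%, 54.8% to 91.0%) and 20 of 27 at Fgf3 (74.1%, 55.3% to 86.8%), against 77.1% of all peaks. The intervals cover counting error only, and peaks of one locus are not replicates. Shared member peaks had a median score of 68 in replicate 1 and private ones 37, and in replicate 2 these medians were 37.5 and 19. Every member peak lay in a hotspot of its own library.

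Across the shared members the scores of the libraries had a Spearman rho of 0.854 at Egr2 (14 pairs) and 0.911 at Fgf3 (20 pairs), a description over sites of the same 2 libraries. The percentile was higher in replicate 1 for 12 of 14 pairs at Egr2 and 17 of 20 at Fgf3, against 83.5% of all 111722 shared peaks.

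**Figure D4:**
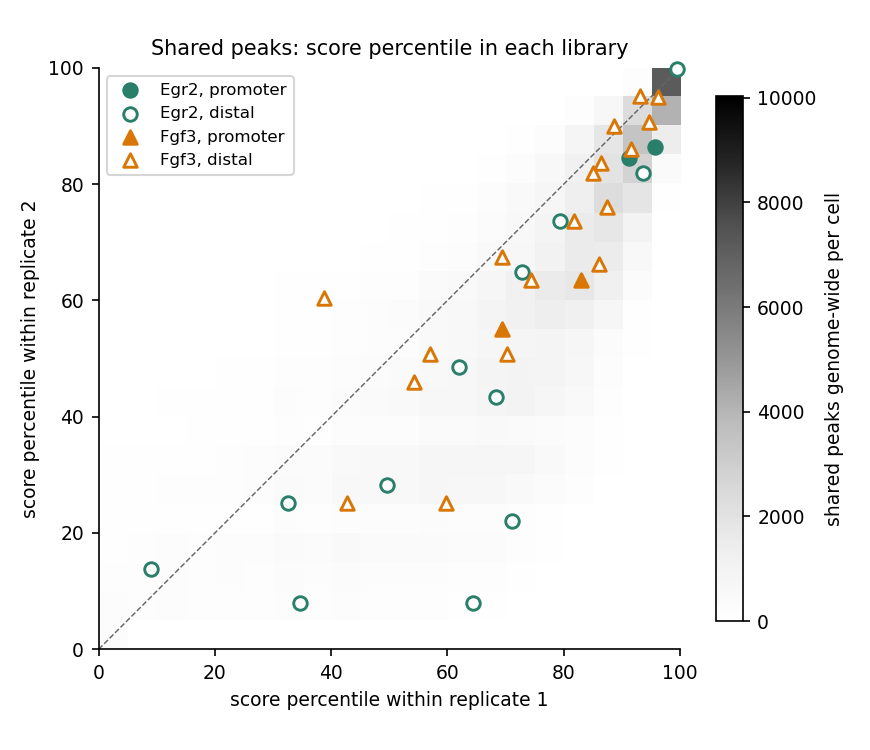
Score percentile of each shared member peak within replicate 1 (x axis) and replicate 2 (y axis), with filled symbols for promoter and open symbols for distal peaks, over all shared peaks in grey. The promoter peaks of Egr2 (percentiles 95.7 and 91.2 in replicate 1) lie above those of Fgf3 (82.9 and 69.3), and most pairs lie below the dashed line of equal percentiles.

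Most promoters of the genes that work with Egr2 in segmentation were called, as were 64.6% of all protein-coding genes. Of 13 rhombomere transcription factors, 11 had a shared promoter peak, all but Hoxb1 and Hoxa3. Hotspots at the cap in both libraries left 8 of the 13, near the 55.8% of all protein-coding genes. Hoxb1, which marks rhombomere 4, had 2 peaks in replicate 1 of up to 49 and 0 in replicate 2. The highest promoter score of Egr2, 121 in replicate 1 and 67 in replicate 2, lay close to the medians over this list, 122 and 70. These medians count genes without a promoter peak as 0. All 9 Eph and ephrin genes, whose products keep cells of neighbouring rhombomeres apart, were called, with medians of 137 and 82. Among them was Epha4, a direct Egr2 target in the mouse hindbrain, with 131 and 74.

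All 5 genes of the EGR family and NAB list were called, against 64.6% of all protein-coding genes. Egr2 scored below Egr1 (137 and 111) and Egr3 (138 and 107) and level with Egr4 (117 and 67) in replicate 2. It scored above Nab1 (108 and 58) and Nab2 (83 and 46). Distal shared peaks numbered 12 at Egr2, against 25 at Egr1, 22 at Egr3 and 14 at Egr4.

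The highest scores of Fgf3, 82 in replicate 1 and 37 in replicate 2, lay above the medians of 8 other FGF ligand genes, 66.5 and 35.5. Those medians count ligands without a promoter peak as 0, which lowers them. Of these 8, 5 were called, with Fgf4, Fgf8 and Fgf17 uncalled. Fgf3 scored above Fgf7 (55 and 28) and below Fgf20 (133 and 101), the highest ligand in both libraries. It also scored below Fgf15 (115 and 78) and Fgf18 (119 and 67). Fgf10 (78 and 43) lay below Fgf3 in replicate 1 and above it in replicate 2. All 4 receptor genes were called, from Fgfr1 (135 and 101) down to Fgfr4 (51 and 33). All 10 target and feedback genes, such as Spry2, Dusp6 and Etv5, were called, with medians of 136 and 106. Over all protein-coding genes 64.6% were called by the same rule, and no difference between lists was tested.

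**Figure D5:**
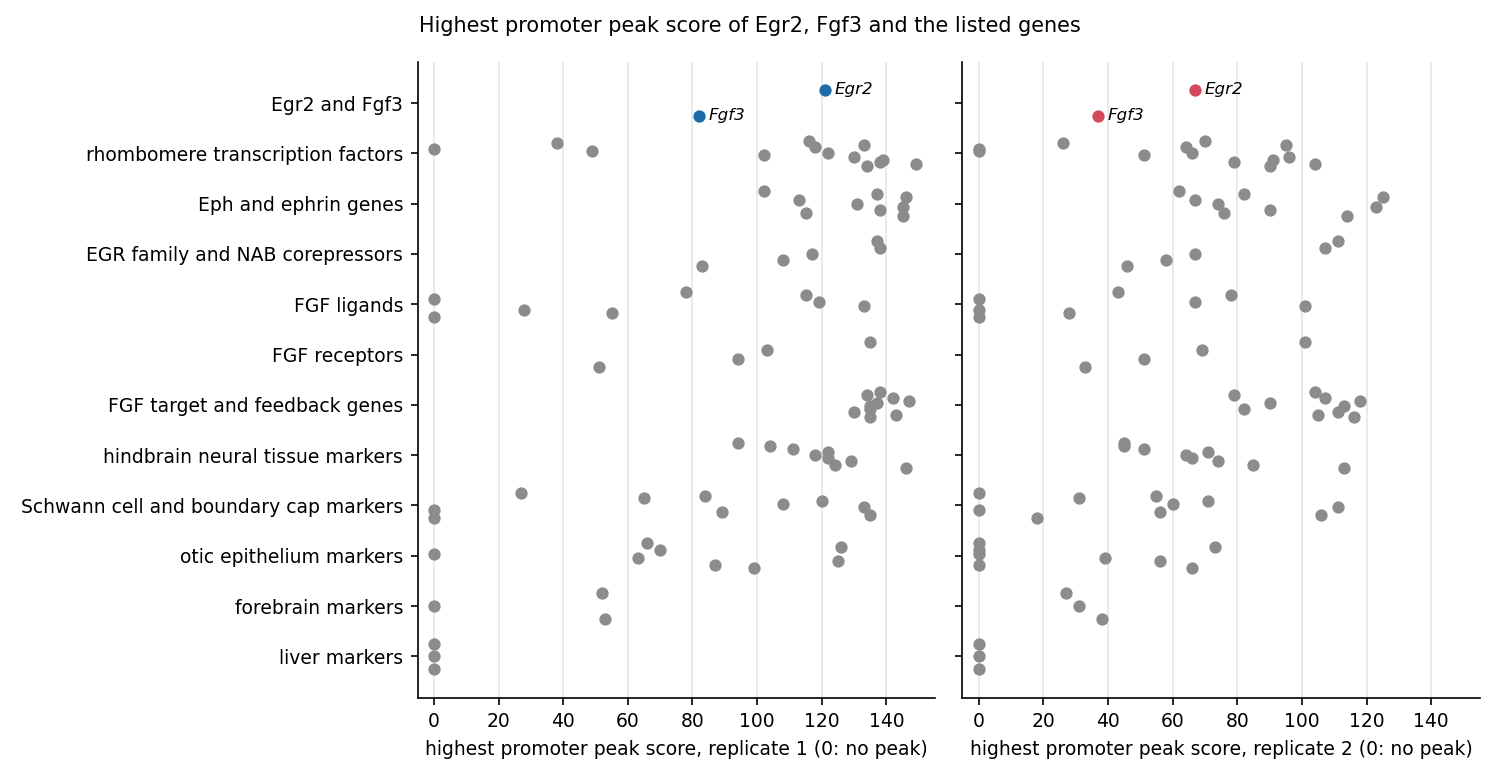
Highest promoter peak score in replicate 1 (left) and replicate 2 (right) of Egr2 and Fgf3 (top row) and of each listed gene (grey), where 0 means no promoter peak. Egr2 (121 and 67) lies within the spread of the rhombomere factors. Fgf3 (82 and 37) lies in the middle of the FGF ligands when those at 0 are counted. All 10 FGF target and feedback genes score 130 or more in replicate 1.

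Genes with the most similar pattern were sought by the distance over 4 percentiles, those of the highest promoter score and of the distal count in each library. Nearest to Egr2 were Tgfbr3 (3.20 percentile points), Palm2 (4.69) and Tsr2 (5.05). Nearest to Fgf3 were Mmp11 (2.21), Cpne5 (2.26) and Nxph3 (2.39). With 2 libraries of 1 tissue, such likeness is a description of these 4 values.

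Other motif matches in the shared members were few. An E-box was found in 3 of the 14 shared Egr2 peaks and 2 of the 20 of Fgf3, against 16.6% of all shared distal peaks. The MAF recognition core TGCTGA was in 2 and 4, against 15.3%, and the SOX site ACAAAG in 4 and 3, against 14.4%. The GC box GGGCGG was in 4 and 3, against 38.1% of shared promoter peaks and 6.12% of distal ones. Over 1 kb from the basic start sites of any gene, the median CpG observed/expected ratio of distal shared peaks was 0.482 at Egr2 (10 peaks). It was 0.227 at Fgf3 (13 peaks), against 0.267 over all distal shared peaks, with no test made. The 10 Egr2 peaks include those at −1.7 kb (0.892) and −2.5 kb (0.758), near its outermost annotated start, which raise its median.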

How the data were processed

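DNase-seq was done on E14.5 hindbrain in 2 biological replicates, and the labels put both in 1 group. Per the text deposited with the samples, the authors made both kinds of list from filtered mm10 alignments, 1 replicate at a time. Aligner, caller and versions, not given in the sources used here, are left unnamed. Peaks have a whole-number score, as deposited, and hotspots a −log10 q-value of 1.30 to 6.0, or 100, also as deposited. Sequencing depth is unknown, since no file gives reads, and no interval rests on it. Peaks off the assembled chromosomes were left out, 253 in replicate 1 and 303 in replicate 2.

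Peaks were placed by their midpoint against GENCODE M21 basic start sites. No peak or hotspot end lay past the end of a GRCm38 chromosome. Overlaps, percentiles (mid-ranks among 21938 protein-coding genes or among the peaks of a library), 95% Wilson intervals and motif matches on both strands were computed with Python 3.11.15, numpy 2.4.6, pandas 2.3.3 and scipy 1.17.1, and figures with matplotlib 3.10.9. Sequence was read from the NCBI RefSeq copy of GRCm38.p6, and bases annotated as untranslated were left out of printed sequences, apart from stretches of 30 bases around a motif match. The counting was tested on simulated peaks.

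The members, the 6 gene lists and the 5 marker lists were chosen with earlier results of these data known, so no p-value or set test was made. Genes named are the members, their coding neighbours, list genes and the 3 genes nearest to each member in 4 percentiles. Printed sequences are the shared promoter peaks and the 2 highest-scoring shared distal peaks upstream of each gene. Alternatives changed the windows, the start sites, the score and hotspot thresholds, the overlap and the libraries used. Some list and marker genes are counted in their lists and not reported here by name.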

Additional observations from a re-analysis of the deposited data

How the results depend on the processing

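Of the alternatives, 125 values stayed within their limits and 35 moved. The distal percentiles crossed the middle of protein-coding genes under some of them. The promoter calls of both genes held under every alternative run except that with hotspots at the cap in both libraries 1 of the 2 was called, Egr2, and 2 of the 4 FGF receptors. Shared promoter peaks of Egr2 numbered 4 with a 2500 bp window, and 2 to 6 with a library left out. Those of Fgf3 numbered 1 with a 500 bp window and 1 from the outermost start, and 2 to 4 with a library left out. The 12 distal shared peaks of Egr2 became 6 at 50 kb, 4 at 20 kb, 7 by nearest coding TSS and 4 among peaks above the median score, and 16 to 26 with a library left out. Its percentile of 51.2 became 54.4, 77.0, 88.1 and 31.2 under these settings, 66.6 without promoter peaks of other genes, 55.8 with 50% overlap, and 52.3 to 54.5 with a library left out. The 18 of Fgf3 became 2 at 50 kb, 0 at 20 kb and 2 by nearest coding TSS, and 25 to 43 with a library left out. Its percentile of 72.2 became 24.1, 14.3 and 58.5 under these 3, and 76.3 to 87.4 with a library left out. With equal numbers of peaks per library, the shared percentage of replicate 1 peaks was 73.3 at Egr2 and 72.0 at Fgf3. The 42.4% of all peaks was at unequal numbers and is no baseline for these. In a separate setting that used hotspots of the other library, 88.9% of Fgf3 peaks of replicate 2 lay in a replicate 1 hotspot. Distal counts thus depend on the window by construction. No paired analysis was possible because there is 1 group. Depth is unknown, so a site undetected in a library cannot be told from a closed one.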

Other observations

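Few protein-coding genes shared the arrangement of CArG boxes seen at Egr2. Of 14170 genes with a shared promoter peak, 148 had a CArG box in at least 1 such peak (1.04%), and 5 had one in 2 or more. Those 5 were Actg1, Catsperg2, Egr1, Egr2 and Gm2974. This count was made after the matches at Egr2 had been seen, and the genes were named from it. Shared promoter peaks numbered 2 at Egr2 and Catsperg2, 3 at Actg1, 5 at Egr1 and 6 at Gm2974. The 14170 genes include those with 1 shared promoter peak, which could not have CArG boxes in 2. No share among genes with 2 or more such peaks is given.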
